A study of Mus musculus with 8 samples.

Results

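The regions described are 381 domains of H3K36me3 that lie close to H3K27me3 in C3H10T1/2 cells, a mouse mesenchymal progenitor line. They were chosen by length and position, and not by signal values, from a list of 4999 H3K36me3 peaks. The rule was set with earlier results of these data known. A domain was taken if it was at least 12000 bp and under 100 kb long, lay outside chromosomes 13 and 18, shared no base with a listed H3K36me2 peak, and had a listed H3K27me3 peak within 50000 bp. The first 3 conditions left 3426 mid-length domains, of which the last kept 381 (11.1%) and set apart 3045 more distant ones. All 381 had values in both genotypes and none was filtered out. The word bordering is used here for a position within 50 kb: only 9 of the 381 shared bases with an H3K27me3 peak, and for the other 372 the gap ran from 0.6 kb to 50 kb with a median of 18 kb.

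The cells stably expressed histone H3.3 with a FLAG-HA tag, either with lysine 36 replaced by methionine (K36M) or wild type (WT), and both lines were used at passages 10 to 15. How the transgene was driven, and whether a line came from 1 clone, is not given in the sources used here. Mononucleosomes were precipitated with antibodies to H3K36me3, H3K36me2 or H3K27me3 after soluble chromatin of Drosophila S2 cells had been added, at 5% of the mouse chromatin, as a common reference (ChIP-Rx). Each mark was measured in 1 library per genotype, so no difference below has a replicate check and none was tested.

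H3K36me3 is laid down by SETD2 along the bodies of transcribed genes as the polymerase elongates. H3K27me3 is laid down by Polycomb repressive complex 2 (PRC2) over silenced regions, where it often covers developmental genes. Both lysines sit on the same histone tail, and H3K36 methylation hinders PRC2 on that tail in vitro, so the places where the 2 marks meet are where an exchange between them could be seen. The K36M histone inhibits H3K36 methyltransferases. The domains carry no gene names here because the gene table at hand belongs to another mouse build than the positions, which are given as deposited and taken as mm9.

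Values are reads in a domain scaled by the authors to the Drosophila spike-in, called normalized reads. Behind them stood 425118 reads in K36M and 787927 in WT over the 381 domains, a median of 948 and 1799 per domain and no fewer than 235 and 429. The intervals given with single ratios are exact 95% Clopper-Pearson intervals from those reads and cover counting error only. The antibodies differ, so levels are compared within a mark and not between marks.

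All 381 bordering domains had less H3K36me3 in K36M than in WT, as did all 4999 listed H3K36me3 peaks. Their summed signal was 93526 normalized reads in K36M and 307292 in WT, which is 30.4% of the WT level, over 15.3 Mb. The median domain held 5.98 normalized reads per kb in K36M and 19.5 in WT, and its log2 ratio of K36M to WT was −1.73, a 3.31-fold lower value. Densities ran from 2.37 to 17.8 normalized reads per kb in K36M and from 11.9 to 42.2 in WT, so the highest K36M values reached the lowest WT values of other domains. Every one of the 381 was at least 2-fold lower, where 98.5% of all listed H3K36me3 peaks were, so this count is close to the background of the list. At least 3-fold lower were 284 of them (74.5%), against 70.3% of all listed peaks, and at least 4-fold lower were 24 (6.30%), against 9.96%.

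**Figure D1:**
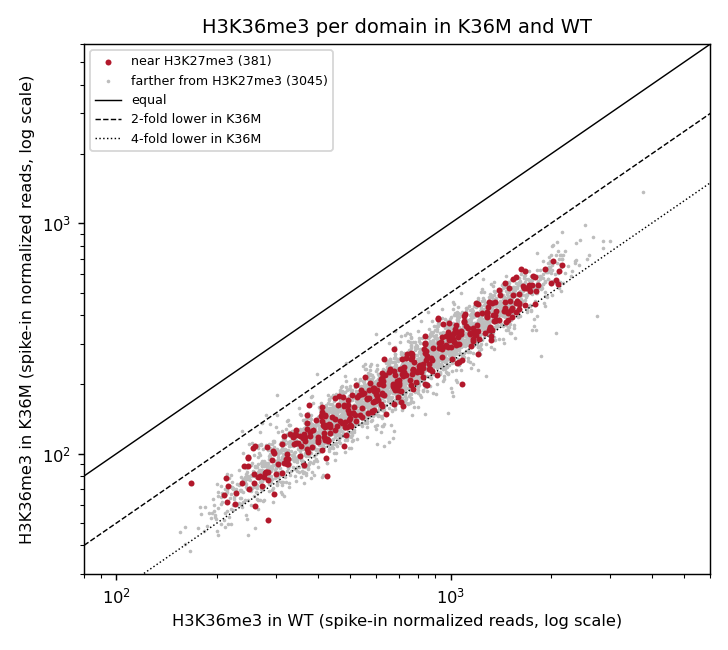
H3K36me3 of each mid-length domain in K36M (vertical) and WT (horizontal), both in spike-in normalized reads on log axes; red points are the 381 bordering domains, grey points the 3045 more distant ones, and lines mark equal, 2-fold and 4-fold lower values. All red points lie below the 2-fold line, inside the grey cloud.

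Domains near H3K27me3 and domains far from it lost H3K36me3 to nearly the same degree. The median log2 ratio was −1.73 in both the bordering and the more distant domains, with a difference of 0.0041. Compared within chromosomes, weighted by their numbers of bordering domains, the difference was 0.033, with bordering domains higher. Their quartiles were −1.83 and −1.58 in bordering domains and −1.86 and −1.59 in distant ones. As totals, K36M kept 30.4% of the WT signal in bordering and 30.3% in distant domains. The log2 ratios ran from −2.46 to −1.17 in bordering domains and from −2.81 to −0.75 in the more numerous distant ones. Bordering domains were slightly shorter, with a median of 34.6 kb against 37.2 kb, and slightly denser in WT, with 19.5 against 18.4 normalized reads per kb.

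No trend with distance was seen among domains that share no base with H3K27me3. The median log2 ratio was −1.76 in the 129 domains within 10 kb, −1.73 in the 102 domains at 10 to 25 kb and −1.71 in the 141 domains at 25 to 50 kb. Beyond the limit it was −1.73 at 50 to 100 kb, −1.75 at 100 to 200 kb, −1.76 at 200 to 500 kb and −1.72 farther away. These medians span less than the distance between the quartiles of any single class. At the limit itself, the domain just inside, with a gap of 50.0 kb, had 125 normalized reads in K36M and 379 in WT. The domain just outside, with a gap of 50.2 kb, had 133 in K36M and 387 in WT. For length, the domain of 12000 bp just inside had a ratio of 0.317 and one of 11800 bp just outside had 0.300. At the upper end, the 99200 bp domain inside had 0.328 and a 100200 bp domain outside had 0.255.

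**Figure D2:**
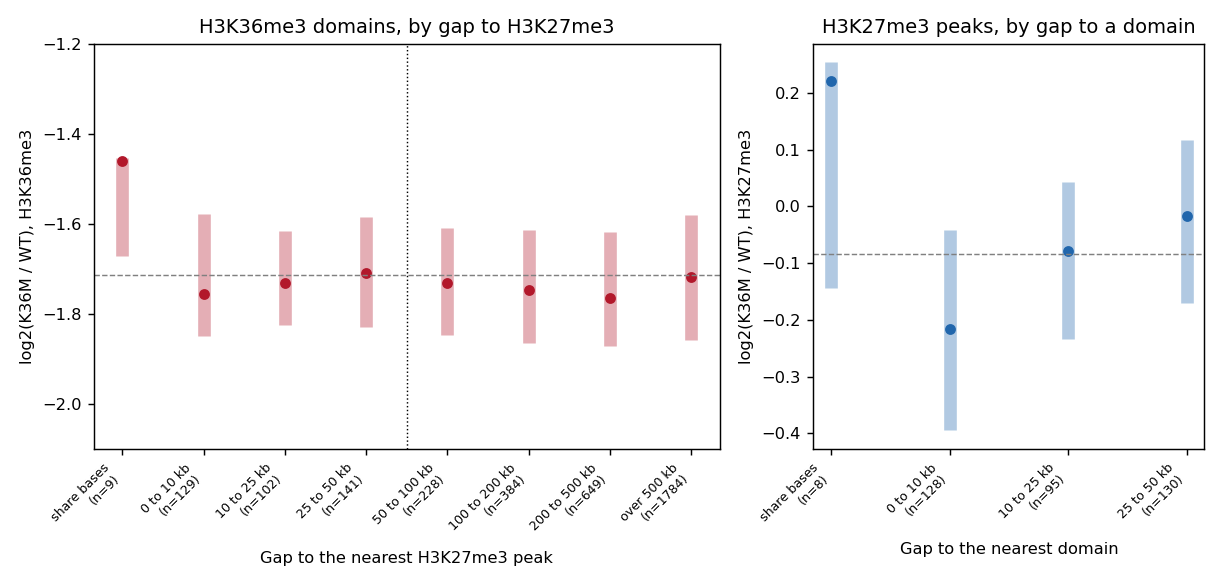
Median (point) and quartiles (bar) of the log2 ratio of K36M to WT by gap, with the number of regions under each class and the median of all listed peaks of that mark as a dashed line. Left, H3K36me3 of mid-length domains by gap to H3K27me3, between −1.76 and −1.71 in every class that shares no base, the dotted line marking 50 kb; right, H3K27me3 of the neighbouring peaks by gap to the nearest bordering domain, lowest at 0 to 10 kb with a median of −0.22.

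The 9 domains that shared bases with an H3K27me3 peak had a higher median ratio than the others, by an amount that their small number leaves uncertain. Their summed signal was 1656 normalized reads in K36M and 4654 in WT, 35.6% of WT, and their median log2 ratio was −1.46, which is 0.27 above that of the other 372. An interval from the ranks of the domains, which are not replicates, ran from −0.02 to 0.34 and includes no difference. Of the 9, 7 lay above the median of all 381 and 6 above the upper quartile. The shared stretch was short in 8 of them, under 12% of the domain and as little as 0.4 kb, so the ratio of a whole domain says little about the shared bases.

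The exception was a 21.8 kb domain on chromosome 5, from 33066400 to 33088199, which contained a whole H3K27me3 peak of 15.6 kb. It had 387 normalized reads of H3K36me3 in K36M and 919 in WT, a ratio of 0.421 (0.396 to 0.448), and was the densest of the 381 domains in WT with 42.2 normalized reads per kb. The H3K27me3 peak inside it, from 33066600 to 33082199, had 330 normalized reads in K36M and 195 in WT, 1.69 times the WT value (1.56 to 1.84). Both marks therefore stood at the upper end of their ratios in the same stretch. Without this domain, the median of the other 8 was 0.24 above that of the domains sharing no base.

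A domain of 56.4 kb on chromosome 19, from 59369400 to 59425799, shared 2.0 kb with an H3K27me3 peak at its end. It had 270 normalized reads in K36M and 743 in WT, a ratio of 0.363 (0.338 to 0.391), and the H3K27me3 peak had 223 in K36M and 184 in WT. On chromosome 17, from 8315600 to 8342999, the domain sharing 2.0 kb was 3.36-fold lower, with 219 and 736 normalized reads in K36M and WT, and the H3K27me3 value was 1.17 times WT. On chromosome 16, from 17897200 to 17914599, the domain also shared 2.0 kb and was 3.18-fold lower, but there H3K27me3 was lower in K36M, at 0.748 of WT. Chromosome 4 held a domain from 154335400 to 154357199 that shared 1.8 kb and was 2.74-fold lower, with H3K27me3 at 0.874 of WT. The domain with the largest loss of the 9, on chromosome 16 between 92304600 and 92324199, had 90.6 normalized reads in K36M and 317 in WT and shared 0.8 kb. H3K36me3 was thus lower in all of these, whereas H3K27me3 went in both directions: of the 8 peaks met by the 9 domains, 5 were higher in K36M, where 37.5% of all listed H3K27me3 peaks were. Of all 41 listed H3K27me3 peaks that shared bases with any H3K36me3 peak, 30 were higher.

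On chromosome 11 a single H3K27me3 peak, 28.2 kb long from 118903600 to 118931799, met a bordering domain at each end. Its H3K27me3 was 287 normalized reads in K36M and 247 in WT, 1.17 times WT. The domain on its left, from 118884600 to 118904599, had 121 normalized reads of H3K36me3 in K36M and 332 in WT. The domain on its right, from 118931400 to 118946799, had 103 in K36M and 294 in WT. Their losses, 2.74-fold and 2.86-fold, were both smaller than the typical loss on that chromosome, where the median log2 ratio of distant domains was −1.84.

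Domains enclosed by H3K27me3 also had a somewhat higher median ratio. The 26 domains with an H3K27me3 peak within 50 kb on both sides, and sharing no base with one, had a median log2 ratio of −1.60, a 3.03-fold loss. The 346 with such a peak on 1 side had −1.74, a 3.34-fold loss. The difference was 0.14, and 0.10 after the median of distant domains of the same chromosome had been taken from each ratio. An interval from the ranks of the domains, which are not replicates, ran from −0.04 to 0.19 and includes no difference. It describes spread over domains only and decides nothing about the genotypes. The quartiles overlapped, from −1.80 to −1.53 for both sides and from −1.84 to −1.60 for 1 side.

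Short domains lost slightly less than long ones. Bordering domains of 12 to 20 kb had a median log2 ratio of −1.66, those of 20 to 30 kb −1.74, those of 30 to 50 kb −1.73 and those of 50 to 100 kb −1.76. In distant domains the same classes had −1.69, −1.72, −1.74 and −1.75. By mean density of both genotypes, mid-length domains were cut into 5 equal classes. From the sparsest to the densest, the medians were −1.73, −1.79, −1.75, −1.75 and −1.65 in bordering domains, with no steady order. In distant domains they were −1.80, −1.77, −1.74, −1.70 and −1.64. Ratios varied more than counting allows, with an SD of 0.20 over bordering domains where counting error alone would give 0.06, but variation between cultures or precipitations is not separated from this.

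Ratios differed more between chromosomes than between the classes of distance that share no base. Among the 14 chromosomes with at least 10 bordering domains, the medians ran from −1.88 on chromosome 15 (37 domains) to −1.49 on chromosome 19 (13 domains). The medians of distant domains on those chromosomes were −1.86 and −1.68. Across the 14 chromosomes the medians of bordering and distant domains ranked alike, with Spearman's rho of 0.86 and Pearson's r of 0.83, as a description of points that share the same pair of libraries. The bordering median was above the distant one on 11 of the 14, by at most 0.19, on chromosome 19. Of the 381 bordering domains, 173 (45.4%) lay on chromosomes 2, 10, 11 and 15, against 26.2% of the distant domains. These chromosomes held the most bordering domains, so part of that contrast follows from picking them. No bordering domain lay on chromosome X.

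**Figure D3:**
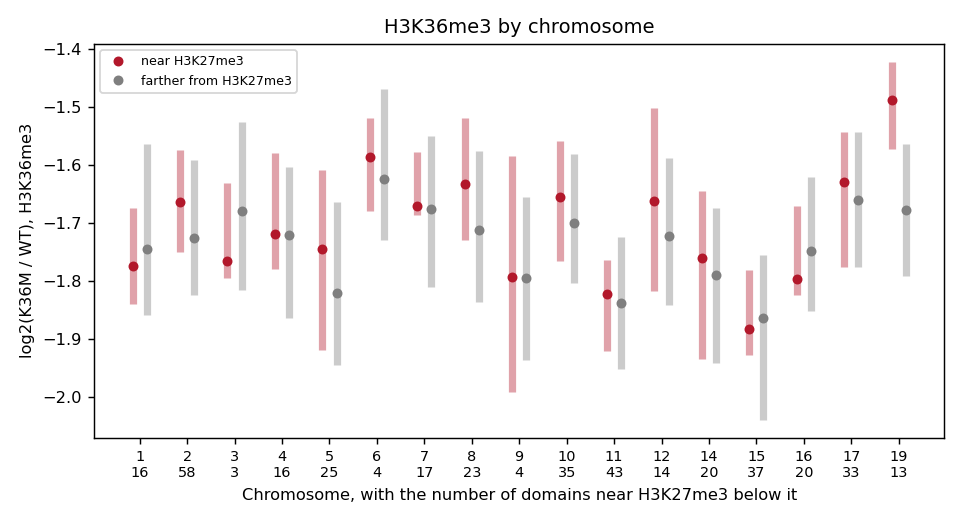
Log2 ratio of H3K36me3 in K36M to WT by chromosome, as median (point) and quartiles (bar), for bordering domains in red and more distant domains in grey; the number of bordering domains stands under each chromosome. Among chromosomes with at least 10 bordering domains, the red and grey medians rank alike. Red is lowest on chromosome 15, at −1.88 with grey at −1.86. It is highest on chromosome 19, at −1.49 with grey at −1.68, where the gap is widest.

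The bordering domains with the lowest ratios, among those with at least the median signal, were 4.23-fold to 5.40-fold lower. The first was an 84.4 kb domain on chromosome 1, between 66408000 and 66492399. It had 200 normalized reads in K36M and 1080 in WT, a ratio of 0.185 (0.172 to 0.200). It also had the lowest H3K36me3 density of the 381 in K36M, 2.37 normalized reads per kb, and the H3K27me3 peak 18.2 kb away had 0.604 of its WT value. The next, on chromosome 5 from 120962400 to 121037599, had 270 in K36M and 1205 in WT, while its H3K27me3 neighbour was nearly equal, with 45.8 and 44.6 normalized reads in K36M and WT. Of the other 4, 3 lay on chromosome 11, from 98543200, from 102695000 and from 103226000, and were all 4.23-fold to 4.25-fold lower, and 1 lay on chromosome 15 from 97941400. The neighbouring H3K27me3 of these 4 was at 0.816 to 0.923 of WT.

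At the other end, and again among domains with at least the median signal, the 6 highest ratios ran from 0.385 to 0.422, a loss of 2.37-fold to 2.60-fold. The highest was a domain of 28.2 kb near the start of chromosome 2, between 3221600 and 3249799, with 285 normalized reads in K36M and 675 in WT, 2.8 kb from an H3K27me3 peak at 0.948 of WT. The chromosome 5 domain that encloses an H3K27me3 peak was the second. A domain on chromosome 19, between 60832400 and 60866599, had 384 in K36M and 917 in WT, 6.2 kb from a 78.0 kb H3K27me3 domain at 1.06 times WT. A 66.4 kb domain on chromosome 1, between 135491000 and 135557399, with 632 normalized reads in K36M and 1622 in WT, was the longest of the 6.

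The 4 domains with the most H3K36me3 in WT were between 3.28-fold and 3.87-fold lower, close to the median domain or somewhat beyond it. On chromosome 11, from 98064200 to 98143799, there were 656 normalized reads in K36M and 2154 in WT, 3.28-fold lower. On chromosome 2, from 31830200 to 31912199, there were 619 in K36M and 2118 in WT, 3.42-fold lower. A domain on chromosome 15 between 75581600 and 75676799 was 3.87-fold lower, and another on chromosome 11 between 102855000 and 102944999 was 3.63-fold lower. Choosing by the WT value favours low ratios, since WT is also the denominator.

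Some bordering domains came in runs. With up to 200 kb between neighbours, 155 of the 381 fell into 66 runs of at least 2 domains, and 226 stood alone. Runs were counted among bordering domains only, so whether they are more frequent here than among other H3K36me3 peaks was not tested. The rule itself favours runs, since domains close to the same H3K27me3 peak often lie close to each other. The longest run was of 6 domains over 535 kb of chromosome 5, from 31337800 to 31872999, set around 3 H3K27me3 peaks of which the largest was 111.8 kb long. Within it H3K36me3 ranged from 4.30 to 5.43 normalized reads per kb in K36M and from 16.6 to 19.7 in WT, and the ratios from 0.246 to 0.306. The 3 H3K27me3 peaks were all lower in K36M, at 0.758 to 0.836 of WT. Both marks were thus lower across the whole stretch, H3K36me3 by about the typical factor or more and H3K27me3 by much less.

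**Figure D4:**
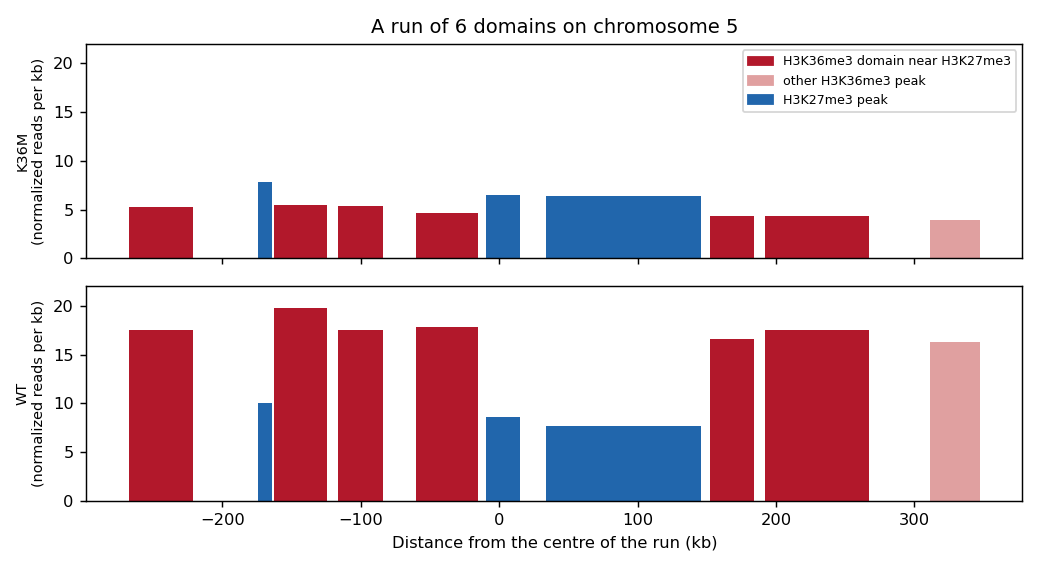
The longest run of bordering domains, on chromosome 5, drawn to scale as distance in kb from its centre, with K36M above and WT below. Box height is spike-in normalized reads per kb of each peak's own mark: H3K36me3 domains (red) stand at 16.6 to 19.7 in WT and 4.30 to 5.43 in K36M, while H3K27me3 peaks (blue) differ far less between the genotypes.

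The H3K27me3 peaks beside the domains address whether H3K27me3 is higher in K36M next to lost H3K36me3. There were 361 such peaks (36.1% of the 999 listed). As a whole they stood close to WT. Their summed signal was 110462 normalized reads in K36M and 113176 in WT, which is 97.6% of WT. For the 638 other peaks it was 94.0%. If the spike-in factors were rounded to 2 decimals, they could be off by up to 1.92% in K36M and 2.78% in WT. That is enough to change the direction of the total of the 361. The median log2 ratio of the 361 was −0.09, with −0.08 for the others. Higher in K36M were 128 of the 361 (35.5%), where 37.5% of all listed H3K27me3 peaks were. They varied less than the others, with SDs of 0.28 and 0.40. At least 1.5-fold lower were 15 of them (4.16%), against 8.11% of all listed peaks, and at least 1.5-fold higher 7 (1.94%), against 3.40%.

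Among these neighbours H3K27me3 was lower in K36M the closer the peak lay to a bordering domain, short of overlap. Among the 128 peaks within 10 kb of a domain, the median peak held 8.29 normalized reads per kb in K36M and 9.69 in WT, and the median log2 ratio was −0.22. The 95 peaks at 10 to 25 kb had −0.08, and the 130 peaks at 25 to 50 kb had −0.02, with 8.89 normalized reads per kb in K36M and 9.24 in WT. In the same order, 20.3%, 37.9% and 46.9% of the peaks were higher in K36M. The 8 peaks that shared bases with a domain had a median of 0.22, with 5 higher in K36M and 3 lower.

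The difference of −0.20 between the nearest and the farthest of these classes was −0.14 after each ratio was centred on its chromosome. The nearest class was lower on 11 of the 13 chromosomes with at least 3 peaks in both classes, and higher by 0.08 on chromosome 10 and by 0.0088 on chromosome 15. It was lower in each of 4 length classes, for example with medians of −0.09 within 10 kb and 0.03 at 25 to 50 kb among peaks of at least 40 kb. The 47 peaks with a bordering domain on both sides had a median of −0.24, against −0.08 for the other 314. Low H3K27me3 ratios were not confined to such places: the 117 listed peaks 200 to 500 kb from any H3K36me3 peak also had a median of −0.22. Peaks over 50 kb from any bordering domain were also classed by gap to any H3K36me3 peak. Their medians were −0.02 in the 32 peaks within 10 kb, −0.15 in 21 at 10 to 25 kb and −0.15 in 40 at 25 to 50 kb.

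The H3K27me3 neighbour with the lowest ratio, among those with at least the median signal, was a 44.0 kb peak on chromosome 10 from 14470600 to 14514599. It had 249 normalized reads in K36M and 407 in WT, a ratio of 0.612 (0.567 to 0.660), 46.8 kb from a domain with an H3K36me3 ratio of 0.292. Peaks on chromosome 2 from 126983600, chromosome 12 from 73948400 and chromosome 5 from 29730000 had ratios of 0.682, 0.685 and 0.698. Their bordering domains had ratios of 0.338, 0.329 and 0.329, all above the median of the 381.

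Of the 4 highest H3K27me3 ratios under the same limit on signal, 1 was the peak enclosed on chromosome 5 and the other 3 lay together on chromosome 10. The peak from 21925800 to 21938199 had 263 normalized reads in K36M and 157 in WT, a ratio of 1.68 (1.53 to 1.84). The peak from 22115800 to 22128399 had 265 in K36M and 160 in WT, and the peak from 21944400 to 21965399 had 365 in K36M and 240 in WT. A further peak, from 22134600 to 22155599, was added after its values were seen and had 353 in K36M and 241 in WT. These 4 form 2 pairs with nearly equal lengths and reads. The peaks of 12.4 and 12.6 kb held 1013 and 1018 reads in K36M and 873 and 889 in WT, and the 2 peaks of 21.0 kb held 1402 and 1358 reads in K36M and 1336 and 1339 in WT. How reads that align in several places were counted is not given in the sources used here, and whether these stretches share sequence was not tested. The bordering domains beside them, from 21880800 to 21909999 and from 22080200 to 22103399, had H3K36me3 ratios of 0.380 and 0.398, among the smaller losses.

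Set side by side, a domain and its nearest H3K27me3 peak had weakly related ratios. The 121 domains whose neighbour was higher in K36M had a median H3K36me3 log2 ratio of −1.67, and the 260 whose neighbour was lower had −1.75. At least 3-fold lower H3K36me3 was found in 65.3% of the 121 and in 78.8% of the 260. Because 51 H3K27me3 peaks were nearest to more than 1 domain, the pairs were also taken once per H3K27me3 peak: over these 327 peaks Spearman's rho was 0.26, and 0.14 after both ratios were centred on their chromosome. This is a description of regions that share their libraries, chromosomes and read depth.

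**Figure D5:**
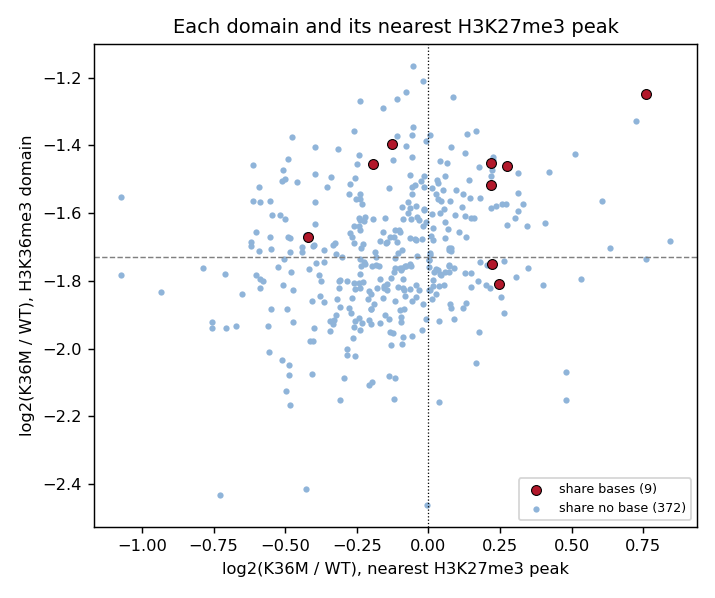
Log2 ratio of K36M to WT of each bordering H3K36me3 domain (vertical) against that of its nearest H3K27me3 peak (horizontal); red points are the 9 domains that share bases with the peak, blue points the other 372. The dashed line is the median of the domains, −1.73, and the dotted line marks equal H3K27me3; 7 of the 9 red points lie above the dashed line.

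H3K36me2, which the NSD enzymes deposit, was near 46 of the bordering domains, within 50 kb but with no shared base by the rule. These 46 had a median H3K36me3 log2 ratio of −1.78, against −1.72 for the other 335. In the 44 H3K36me2 peaks beside them the median was 11.8 normalized reads of H3K36me2 per kb in K36M and 43.0 in WT, and the median log2 ratio was −1.94. All listed H3K36me2 peaks had −2.07. Both H3K36 methylation states were lower in K36M here, as they were in all 4999 listed H3K36me3 peaks and all 1691 listed H3K36me2 peaks. Whether the H3K36me2 and the H3K27me3 peak lay on the same side of a domain was not examined.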

How the data were processed

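ChIP-Rx libraries of 3 histone marks from 2 genotypes were used, 1 library each, and the 2 inputs were left aside. What the authors deposited is, per the file headers, a signal for every peak normalized by means of the Drosophila reads. The submitters' processing notes name Bowtie 1.0.0 as well as mm9 and dm6. Not given in the sources used here are the peak caller, the library it ran on and how the spike-in factor was computed. Shares and distances describe the listed peaks, which may not be all that were called.

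Every value of a column was a whole multiple of 1 step (0.22 in K36M and 0.39 in WT for H3K36me3, 0.26 and 0.18 for H3K27me3), which was read as the worth of 1 read and gave the reads behind each ratio. Gaps are the bases between 2 peaks, and sharing means at least 1 base. Ratios are K36M over WT with no pseudocount. With 1 library per group, no test could be made between genotypes. The members and lists were chosen with earlier results of these data known. Named regions are, among domains with at least the median mean signal, the 6 lowest and 6 highest ratios and the 4 highest WT values. Among H3K27me3 neighbours with at least their median signal, the 4 lowest and 4 highest ratios are named. The 6 longest shared stretches and the regions at the thresholds had no limit on signal. The overlapping domain with the largest loss, the right-hand domain of the chromosome 11 peak and the longest run were named outside these rules. Positions are printed as deposited, in windows of 200 bp that appear to be counted from 0. Calculations were checked on simulated counts and used Python 3.11.15, numpy 2.4.6, pandas 2.3.3 and scipy 1.17.1.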

Additional observations from a re-analysis of the deposited data

How the results depend on the processing

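The sizes depend on the scaling by spike-in. Equal totals for both libraries of a mark gave a median log2 ratio of −0.012 over bordering domains. The total ratio was 0.9998, and 0 domains were at least 2-fold lower. For the H3K27me3 neighbours the median was −0.024, and 166 of the 361 were higher in K36M, where 128 were as reported. These shifts follow from the construction of such a scaling. If the H3K36me3 factors were rounded to 2 decimals, medians of −1.78 to −1.68 and total ratios of 0.294 to 0.315 are possible. Such a range was not computed for H3K27me3, whose factors could be off by up to 1.92% in K36M and 2.78% in WT. Adding a pseudocount at the 5th percentile gave a median of −1.47 over bordering domains. With only peaks of at least the median signal, 191 domains were at least 2-fold lower and 74 neighbours higher, since fewer peaks were counted, and the neighbours' median was −0.057. Without chromosome 15 the total ratio was 0.308. A reach of 10 kb gave 138 domains at least 2-fold lower and one of 100 kb gave 609, as other numbers of domains were taken. In 39 recalculations, the count of 166 neighbours among them, the value lay inside its own interval, or a count within 1.5 times. The recalculation that asked for at least 10% of the domain to be shared rested on 2 domains. The comparisons of H3K27me3 by gap and of domains with H3K27me3 on both sides or 1 side, with their alternatives, were added after the data were seen. No paired analysis was possible because each genotype and mark has 1 library, so leaving out a replicate was not possible either. Reads per domain, 948 in K36M and 1799 in WT at the median, limit counting error alone.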
